A study of Mus musculus with 6 samples.

Results

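The genes described here encode the subunits that set PBAF apart from the other SWI/SNF complexes, namely Pbrm1, Arid2, Brd7 and Phf10, 4 of the 21951 protein-coding genes in the annotation. Chromatin accessibility at them was taken from ATAC-Seq peak lists of primary oviductal smooth muscle cells. Members were the regions of the merged WT and Pbrm1 cKO lists that overlapped a gene body or the 10 kb on either side of it. There were 17 such regions among 66679, with 5 at Pbrm1, 6 at Arid2, 3 at Brd7 and 3 at Phf10. In addition, the longer list of each library gave 51 to 64 intervals over these loci, out of 201228 to 241237 intervals in a library.

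SWI/SNF complexes use the energy of ATP to slide or evict nucleosomes. They share an ATPase (SMARCA4 or SMARCA2) and a core, and are divided into BAF, ncBAF and PBAF by a few subunits that belong to only one of them. PBRM1 carries a row of bromodomains that bind acetylated histones, ARID2 is the large DNA-binding subunit on which PBAF-specific subunits assemble, BRD7 is a bromodomain protein and PHF10 carries PHD fingers. Smooth muscle of the oviduct lies around the epithelial tube, and its contractions help to carry embryos towards the uterus.

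The 6 libraries comprised 3 labelled WT and 3 labelled Pbrm1 cKO. All mice were 8 to 12 weeks old and had been mated, and oviducts were taken on day 2 of pregnancy. Per the study's methods, control mice were Pbrm1 fl/fl littermates, so both groups carry the floxed alleles, and the cKO mice carry in addition a Cre inserted at the progesterone receptor gene (PR-IRES-cre/+), which acts in any cell that expresses that receptor or descends from one that did. Digested cells were plated for some hours before 50000 of them entered each assay. How many mice gave a library is not given in the sources used here, so p-values measure the spread between these libraries, which may be technical in part. Peak lists do not show which exon was deleted, and the genotype labels were not checked by them.

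Smooth muscle and other cell types were checked by the promoters of their marker genes. Of 7 smooth muscle genes, 6 had an accessible promoter region (Acta2, Myh11, Cnn1, Tagln, Des and Lmod1, but not Myocd). Of 7 oviduct epithelial genes, only Foxj1 had one, and Epcam, Cdh1, Krt8, Krt18, Pax8 and Ovgp1 had none. Cd68 was the only one of 4 immune genes, and Pecam1 and Kdr were 2 of 4 endothelial genes, with such a region. The smooth muscle regions ranked low, at a median percentile of 16.0 among promoters, with Acta2 the highest at 26.0. Of the other cell types, Foxj1 ranked at 69.0, Kdr at 25.7, Cd68 at 22.9 and Pecam1 at 12.9. Smooth muscle thus led by the number of regions but not by their rank. No marker region differed between the genotypes (smallest adjusted p = 0.409, limma).

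The sequences around 3 of the starts are shown because the accessible regions nearest to them are the main measurement below. The windows are not the regions themselves, and share 300 bp with the region at Pbrm1, 287 bp at Brd7 and 160 bp at Phf10. At Phf10 the summits lay at −785 to −518 bp from the start and so outside the window. At Brd7 they lay at 175 to 199 bp, also outside, in every library but cKO 1 (−123 bp). At Pbrm1 only the summit of cKO 3, at 60 bp, lay outside. The windows are 300 bases from RefSeq (build GRCm38.p6), with 250 bases before and 50 after the start. Capitals mark every match, on either strand, to 1 of the 7 motifs searched.

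Pbrm1, chr14:31018888-31019187, plus strand: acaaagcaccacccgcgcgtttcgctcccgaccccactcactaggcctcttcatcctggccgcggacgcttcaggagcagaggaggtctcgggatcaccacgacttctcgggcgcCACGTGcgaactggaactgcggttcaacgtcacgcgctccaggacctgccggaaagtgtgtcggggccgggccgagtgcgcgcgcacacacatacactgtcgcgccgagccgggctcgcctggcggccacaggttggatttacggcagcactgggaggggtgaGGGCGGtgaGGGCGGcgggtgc

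Brd7, chr8:88362123-88362422, minus strand: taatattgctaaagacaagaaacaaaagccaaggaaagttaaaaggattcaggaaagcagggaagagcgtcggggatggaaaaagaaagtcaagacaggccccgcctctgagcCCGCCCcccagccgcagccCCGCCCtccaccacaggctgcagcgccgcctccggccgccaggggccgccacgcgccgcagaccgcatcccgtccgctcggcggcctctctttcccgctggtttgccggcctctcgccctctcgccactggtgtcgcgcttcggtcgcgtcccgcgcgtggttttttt

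Phf10, chr17:14961211-14961510, minus strand: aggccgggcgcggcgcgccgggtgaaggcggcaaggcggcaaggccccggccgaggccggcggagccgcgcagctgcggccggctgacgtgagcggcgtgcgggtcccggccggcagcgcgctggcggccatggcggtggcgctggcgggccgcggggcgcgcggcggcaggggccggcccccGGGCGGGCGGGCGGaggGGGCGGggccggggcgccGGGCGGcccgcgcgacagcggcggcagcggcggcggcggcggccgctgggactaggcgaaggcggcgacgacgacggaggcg

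All of these are CpG-rich windows. The Pbrm1 window holds 35 CpG dinucleotides and 68.0% G and C, and the Brd7 window 31 and 64.0%, against medians of 13 and 56.3% over 21262 protein-coding promoters. The Phf10 window stood at the far end of that distribution, with 62 CpG (more than 99.94% of promoters) and 87.0% G and C (higher than 99.96%). Its GC box matches (GGGCGG, the letters bound by SP and KLF factors) numbered 5, of which 3 overlap each other, while Pbrm1 and Brd7 held 2 each. A GC box was in 46.2% of all promoters. Pbrm1 also held 1 E-box (CACGTG), which 7.84% of promoters hold. None of the 3 windows contained CCAAT (NF-Y, in 38.2% of promoters), CCGGAAG (ETS, 11.6%), TGACGTCA (CREB and ATF, 2.23%), GCGCATGC (NRF1, 3.51%) or AAGATGG (YY1, 6.24%). Arid2 is named only.

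To ask where these genes stand in the accessible genome of the cells, regions were ranked within each library by their best −log10 p. The rank score is the log2 of the number of regions over the rank, so 0 is the lowest region of a library, 1 its middle and each further unit a doubling in rank. 3 of the promoters stood close together and Phf10 stood below them. Averaged over the 6 libraries, the score was 2.11 ± 0.45 (SD, n = 6) for Pbrm1, 2.08 ± 0.73 for Brd7, 2.04 ± 0.37 for Arid2 and 0.95 ± 0.32 for Phf10. Pbrm1 exceeded Brd7 in 4 of 6 libraries and Brd7 exceeded Arid2 in 3 of 6, so these neighbours did not differ beyond their spread. Arid2 exceeded Phf10 in 5 of 6 libraries. The Phf10 region is identical to 2 further places, described below, so its reads fit each of them equally well. At its own best summits lay 20 to 35 reads, and 58 to 93 when summed over the copies. Its place below the other promoters is therefore not a measure of Phf10 alone.

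Among the 13280 protein-coding genes with an accessible promoter, all of these promoters ranked in the lower part. Pbrm1 lay at percentile 31.2, Brd7 at 30.5, Arid2 at 29.8 and Phf10 at 12.8. The Phf10 percentile carries the same limit as its score. Promoters of the other subunits were mostly higher. The 15 genes of shared subunits had a median percentile of 62.8, led by Actl6a, an actin-related subunit, at 99.0, and all 15 had a promoter region. BAF and ncBAF genes had a median of 67.7 over 9 of 10 genes, with no region at Bicral. Yet the lists overlapped, since Smarcd3 at 11.8, Actl6b at 14.5 and Arid1b at 4.56 were as low as the PBAF genes. These are descriptions of rank with no test, as the genes are not replicates of one another.

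**Figure D1:**
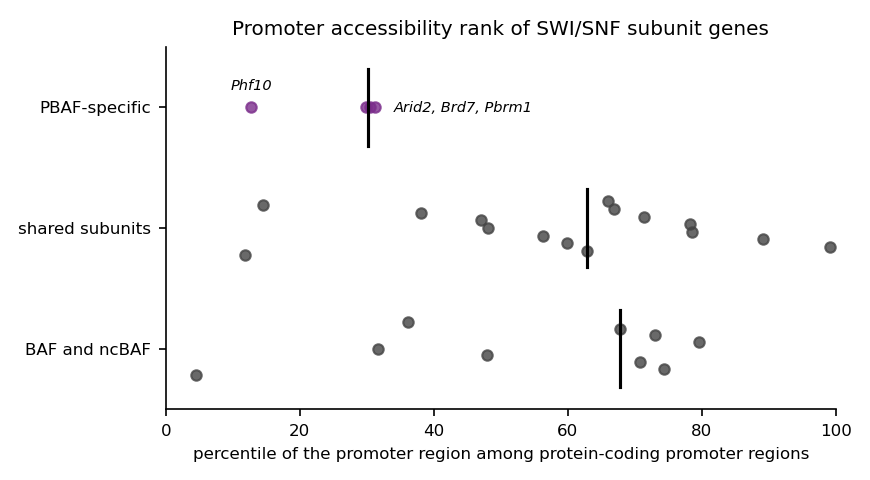
Percentile of each SWI/SNF subunit promoter region among the promoter regions of 13280 protein-coding genes (horizontal axis), from the mean rank score of 6 libraries. Points are genes and the vertical bars are list medians, and the 4 PBAF genes lie between 12.8 and 31.2 while the other lists have medians of 62.8 and 67.7. The Phf10 value (12.8) comes from a region with 2 identical copies elsewhere.

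The promoter regions differed in where the signal lay relative to the start. At Pbrm1 the region (chr14:31018762-31019679) spans the start, which it shares with the divergent gene Gnl3, encoding a nucleolar GTP-binding protein. At Brd7 the region (chr8:88361677-88362409) also spans the start and covers coding sequence. Intervals of all 6 libraries covered these 2 starts. In contrast, the Arid2 region (chr15:96286312-96286942) ended 576 bp before the start, with summits within 5 bp of each other over the 6 libraries, and the start itself was covered by an interval in only 3 of 6. The Phf10 region (chr17:14961351-14962262) ended 78 bp before the start, and an interval covered the start in 1 of 6 libraries, WT 3.

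The Phf10 promoter lies in a repeated stretch. A block of 10476 bp, from 475 bp inside the gene to the edge of the 10 kb flank, or 28.9% of the gene with its flanks, aligned to 2 further places nearby on chromosome 17, at chr17:14992422-15002866 with 99.2% identity and chr17:15023790-15034233 with 99.2%. The 912 bp of the accessible region are identical (100%) in all 3 copies, so a read inside it fits each copy equally well. Of the 17 regions at PBAF genes, this was the only 1 with a copy elsewhere (at least 90% identity over 50% of its length). Peaks were listed at all 3 copies in all 6 libraries, so the Phf10 promoter values above and below cannot be told apart from those of the copies.

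Next, accessibility of the promoters was compared between WT and Pbrm1 cKO cells. None of these promoters passed the test, which 0.0490% of protein-coding promoter regions passed. With 3 libraries against 3, the exact permutation test cannot go below p = 0.1, and its p-values were adjusted over 12 tests (3 measures at 4 genes), so the limma fit over all 66679 regions carries the calls. In that fit 26 regions (0.0390%) were higher and 19 (0.0285%) lower in Pbrm1 cKO, at an adjusted p under 0.05.

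Pbrm1, the deleted gene, had promoter scores of 1.78, 2.66 and 1.80 in WT 1 to 3 and 2.43, 2.43 and 1.59 in cKO 1 to 3. The groups overlapped, with the highest value in WT 2 and the lowest in cKO 3. The difference was 0.07 ± 0.37 (SE, 95% interval −0.71 to 0.84, adjusted p = 0.955, limma), and it fell below 0 without WT 1, WT 3, cKO 1 or cKO 2 (−0.08 to −0.07). At the summit, 25 to 61 reads lay behind these values.

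The promoter of Arid2, the scaffold of PBAF, had scores of 1.87, 1.38 and 2.29 in WT and 2.27, 2.34 and 2.07 in Pbrm1 cKO. The cKO libraries lay close together inside the upper part of the WT range, apart from cKO 2, which was the highest of the 6. The difference of 0.38 ± 0.34 had an interval of −0.34 to 1.09 (adjusted p = 0.634, limma).

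For Brd7 the scores were 1.31, 1.55 and 3.21 in WT and 1.78, 1.93 and 2.69 in Pbrm1 cKO. WT 3 was the highest and WT 1 the lowest, so the cKO values lay inside the WT range. The difference was 0.11 ± 0.44 (interval −0.82 to 1.04, adjusted p = 0.933, limma), and it turned to −0.25 without WT 1, −0.12 without WT 2 and −0.16 without cKO 3. WT 3 was also the library that stood apart from the other libraries, with a median of 8 reads per summit against 13 to 15 and 241237 intervals against 201228 to 209436.

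Phf10 was the only promoter of the 4 at which the groups did not overlap. Its scores were 0.96, 1.47 and 1.15 in WT and 0.81, 0.62 and 0.67 in Pbrm1 cKO, every cKO library below every WT library. Of all protein-coding promoter regions, 14.0% had groups that did not overlap. The difference was −0.49 ± 0.29 (interval −1.09 to 0.11, adjusted p = 0.420, limma).

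The separation of the groups at Phf10 was not seen at the identical copies. At the copy 31.6 kb upstream the scores were 0.76, 0.68 and 0.66 in WT and 0.12, 0.24 and 0.93 in Pbrm1 cKO. At the copy 63.0 kb upstream they were 0.34, 0.47 and 0.89 in WT and 0.19, 1.27 and 0.58 in Pbrm1 cKO. Both copies had overlapping groups, with cKO 3 the highest at the nearer copy and cKO 2 at the farther. Averaged over the 3 copies, the scores were 0.69, 0.87 and 0.90 in WT against 0.37, 0.71 and 0.73 in Pbrm1 cKO, a difference of −0.21 (exact permutation p = 0.3, two-sided, n = 3 and 3) with overlapping groups. The reads at the best summits, summed over the copies, were 93, 91 and 58 in WT and 70, 77 and 85 in Pbrm1 cKO. This averaging was chosen after the values had been seen.

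**Figure D2:**
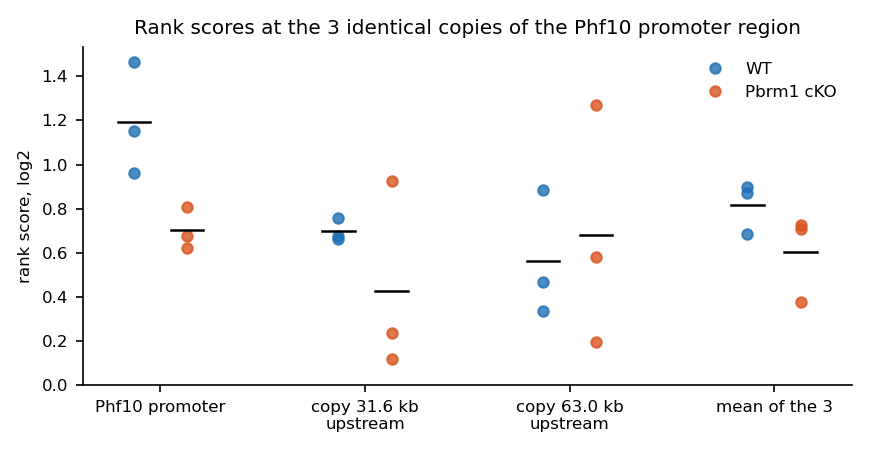
Rank score (log2, vertical axis) at the Phf10 promoter region, at its 2 identical copies and as their mean, with 1 point per library (WT blue, Pbrm1 cKO orange) and black bars for group means. The groups are apart at the Phf10 promoter itself (0.96 to 1.47 against 0.62 to 0.81) and overlap at both copies and in the mean.

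Beyond the promoters, the remaining 13 regions lay in introns, in exons, upstream or downstream of a gene, or at promoters of neighbouring genes. Of all 17 regions, 5 lay within 1 kb of the coding start of their own gene, 4 only near the start of another gene and 8 near no coding start. None of the 17 was called by limma (smallest adjusted p = 0.152), and 1 had an unadjusted p under 0.05, where 15.9% of all regions had. Over the other settings of the fit, 1 to 3 had an unadjusted p under 0.05 and the smallest adjusted p ranged from 0.0930 to 0.345. The groups did not overlap at 3 of the 17, against 21.5% of all regions. The difference was above 0 at 10 regions and below 0 at 7, with a median of 0.06 against 0.00055 over all regions.

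**Figure D3:**
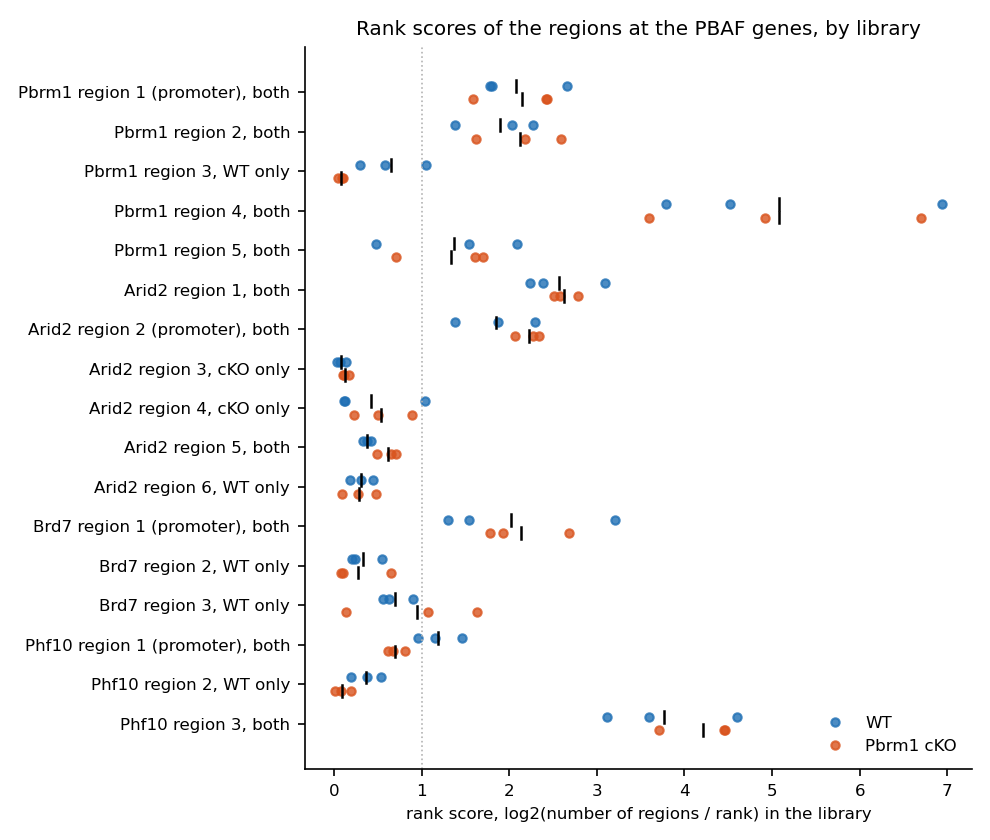
Rank score (log2 of the number of regions over the rank, horizontal axis) of the 17 regions at the PBAF genes in each library, WT in blue and Pbrm1 cKO in orange, with black bars for group means. The row names give the gene, the region, and the genotype list that held it, and the groups are apart only at Pbrm1 region 3, Phf10 region 1 and Arid2 region 5.

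The region with an unadjusted p under 0.05 lay at the far end of the Pbrm1 locus, beyond the last exon of Pbrm1 and inside an intron of Smim4, which encodes a small mitochondrial inner membrane protein. It is the third accessible region counted from the start of Pbrm1, 264 bp from a start of Smim4, and was listed in the WT list only. Its 197 bases, on the plus strand of GRCm38, are shown since they carried the smallest p of the locus, with motif matches in capitals.

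Pbrm1 region 3, chr14:31128378-31128574: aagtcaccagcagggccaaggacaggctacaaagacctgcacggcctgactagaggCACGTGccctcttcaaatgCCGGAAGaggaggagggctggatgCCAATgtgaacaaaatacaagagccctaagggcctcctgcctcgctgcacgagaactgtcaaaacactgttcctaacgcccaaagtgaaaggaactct

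This sequence held an E-box, an ETS match and a CCAAT, which were in 4.01%, 3.21% and 21.8% of windows of the same length centred on all 66679 regions. The scores were 0.59, 1.05 and 0.30 in WT and 0.10, 0.11 and 0.05 in Pbrm1 cKO. Every cKO library was below every WT library, and the region nevertheless had an entry in all 6 libraries, with 34, 38 and 16 reads at the summit in WT and 28, 25 and 20 in Pbrm1 cKO. The difference was −0.56 ± 0.18 (interval −0.95 to −0.18, unadjusted p = 0.00609, adjusted p = 0.152, limma). Of the 991 regions within 20 Mb of Pbrm1 on chromosome 14, groups did not overlap at 25.6% and 4 regions (0.404%) were called.

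The other regions of the Pbrm1 locus overlapped between the genotypes. An intronic region 69394 bp into Pbrm1 (chr14:31088532-31088894) also covers an exon of Smim4, with scores of 2.04, 1.39 and 2.28 in WT and 2.59, 2.18 and 1.62 in Pbrm1 cKO. The Smim4 promoter, next to region 3, was the most accessible region of all 17, with 4.52, 6.93 and 3.79 in WT and 3.60, 6.70 and 4.92 in Pbrm1 cKO. Its difference was −0.01 ± 0.78 and its interval of −1.65 to 1.64 was the widest of the 17. The promoter of Nt5dc2, the next gene, had means of 1.37 ± 0.82 and 1.34 ± 0.55 (SD, n = 3).

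Arid2 had the most regions, and both regions listed in Pbrm1 cKO only were there. One lay in an intron 5296 bp from the start (chr15:96292814-96293118) and had scores of 0.14, 0.07 and 0.03 in WT and 0.11, 0.17 and 0.11 in Pbrm1 cKO, with no entry in WT 3. The other covers a coding exon of Arid2 (chr15:96366647-96366884), with 0.12, 0.12 and 1.05 in WT and 0.89, 0.50 and 0.23 in Pbrm1 cKO. Despite the call in Pbrm1 cKO only, WT 3 was the highest of the 6 libraries at this exon, and at both regions the groups overlapped.

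A further intronic region of Arid2 (chr15:96377797-96378251) had groups that did not overlap, in the upward direction. Its scores were 0.38, 0.43 and 0.33 in WT and 0.65, 0.71 and 0.50 in Pbrm1 cKO, from 8 to 15 reads at the WT summits and 18 to 21 at the cKO summits. Every cKO library was above every WT library, as at 10.6% of all regions. The difference was 0.24 ± 0.19 (interval −0.15 to 0.63, adjusted p = 0.566, limma). The other region upstream of the Arid2 start, closest to the lincRNA gene 2610037D02Rik, had a higher mean score than the Arid2 promoter itself, at 2.57 ± 0.46 in WT and 2.63 ± 0.15 in Pbrm1 cKO (SD, n = 3, interval of the difference −0.69 to 0.80). Downstream of the gene, a region in the WT list only (chr15:96405696-96405925) had means of 0.31 ± 0.13 and 0.28 ± 0.19.

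Both non-promoter regions of Brd7 lay in introns and both were in the WT list only. Region 2 (chr8:88360063-88360254) scored 0.24, 0.55 and 0.20 in WT and 0.65, 0.08 and 0.10 in Pbrm1 cKO. Region 3 (chr8:88339994-88340647) scored 0.56, 0.63 and 0.91 in WT and 1.08, 0.14 and 1.63 in Pbrm1 cKO. At each of them the highest library was a cKO library, cKO 1 in region 2 and cKO 3 in region 3, and the cKO values spread more widely than the WT values. Thus the mean of region 3 was higher in Pbrm1 cKO by 0.25 ± 0.33, although its list entry was in WT.

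Phf10 had an intronic region 989 bp into the gene, outside the repeated block, that was in the WT list only. Its 184 bases, on the minus strand of GRCm38, are shown since no copy of this region was found elsewhere. None of the 7 motifs was found in it. A site of the relaxed lists nearer to the start (chr17:14960594-14961274), which lies only in part outside the repeated block, was listed in all 6 libraries but was in neither reproducible list.

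Phf10 region 2, chr17:14960101-14960284: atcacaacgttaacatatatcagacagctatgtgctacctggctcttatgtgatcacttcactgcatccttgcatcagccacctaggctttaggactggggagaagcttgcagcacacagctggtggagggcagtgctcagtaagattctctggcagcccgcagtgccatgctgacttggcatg

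Its scores were 0.53, 0.38 and 0.19 in WT and 0.01, 0.08 and 0.20 in Pbrm1 cKO. The values of WT 3 and cKO 3 crossed narrowly (0.191 and 0.196), and the other cKO libraries were below all WT libraries. The difference was −0.27 ± 0.13 (interval −0.54 to 0.0011, adjusted p = 0.317, limma). At the other end of the gene, the shared promoter of Wdr27 and 1600012H06Rik was among the most accessible regions, at 3.77 ± 0.76 in WT and 4.21 ± 0.43 in Pbrm1 cKO.

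The lists of reproducible peaks gave a second view of the loci. They were given per genotype and not per library, so they cannot show the spread between libraries. Of the 17 regions, 10 were in both lists, 5 in the WT list only and 2 in the Pbrm1 cKO list only. Over all 66679 regions, 13.4% were in the WT list only and 17.4% in the Pbrm1 cKO list only. All 4 promoters were in both lists, as were 11251 of the 12234 promoter regions of protein-coding genes. All 5 regions of the WT list only had entries in all 3 cKO libraries, so these calls did not mark sites without signal in the other genotype.

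**Figure D4:**
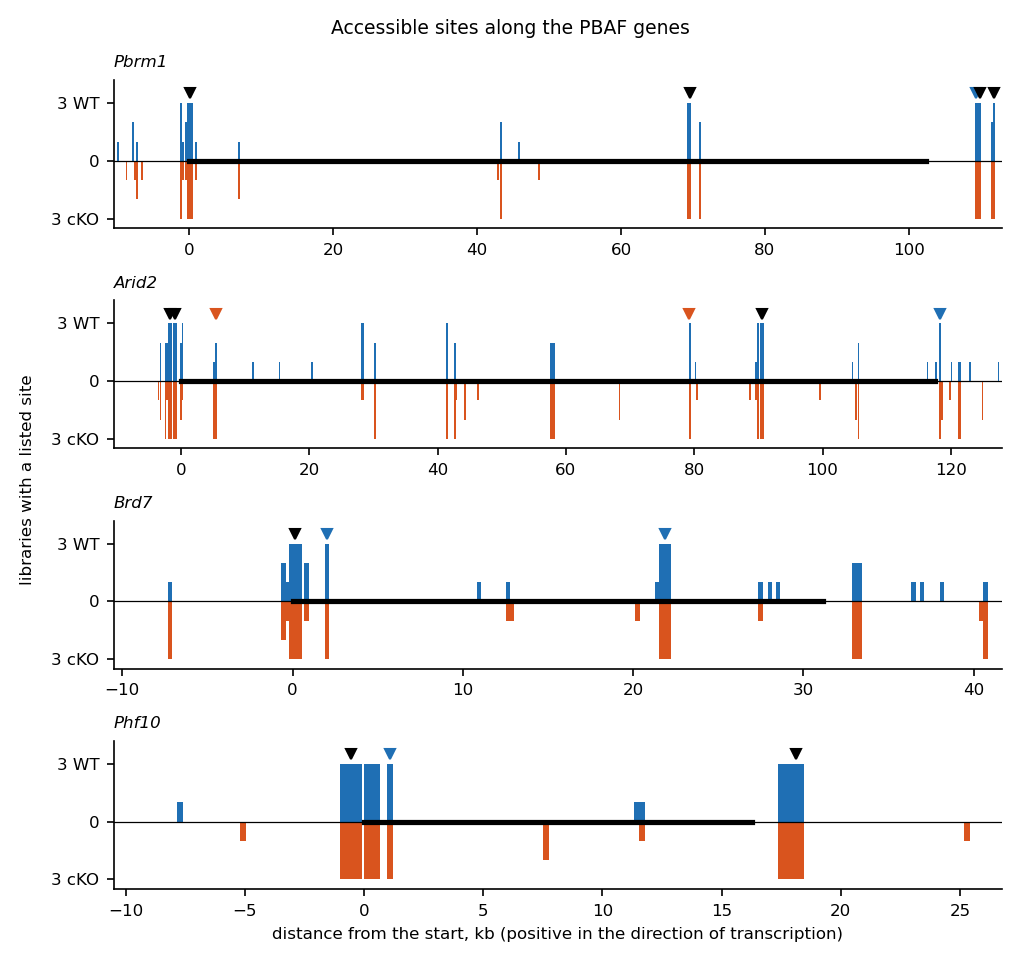
Sites of the relaxed lists along each gene, by distance from the start in kb (horizontal axis), with bars up for the number of WT libraries and bars down for the number of Pbrm1 cKO libraries that listed a site, the gene as a black line and triangles for the regions of the reproducible lists (black both, blue WT only, orange cKO only). No site has bars of 3 on 1 side and none on the other, and 21 of 97 sites were listed in all 6 libraries.

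Finally, the relaxed lists were counted over each locus. Merged over the libraries they held 97 sites, of which 21 were in all 6 libraries, as were 20.5% of all 419274 sites, and 38 in 1 library. No site was in all 3 WT and no cKO library, where 0.595% of all sites were, and none in all 3 cKO and no WT library, where 1.08% were. The number of intervals was 15, 14 and 11 in WT and 17, 13 and 17 in Pbrm1 cKO at Pbrm1, and 20, 19 and 26 against 24, 25 and 26 at Arid2. At Brd7 it was 11, 9 and 12 against 12, 9 and 11, and at Phf10 8, 9 and 7 against 11, 8 and 9. In these full lists the groups overlapped at every gene, whereas 3.35% of protein-coding genes had more intervals in every cKO than in every WT library and 4.39% fewer. The exact permutation p was 0.3, 0.4, 1 and 0.5 in the order given (two-sided, n = 3 and 3). This depended on the setting. It fell to 0.1, the smallest possible, at Arid2 for entries at a q of 0.05 or less (3.33 more intervals in Pbrm1 cKO) or without WT 3 (5.5 more). At Pbrm1 it was 0.1 over the gene body alone (2.0 more).

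The length covered by intervals did not overlap between the genotypes at Pbrm1 and Arid2 in the full lists, but at Pbrm1 this depended on how far down the lists were read. At Arid2 it was 4185, 3713 and 4158 bp in WT and 5317, 5064 and 5295 bp in Pbrm1 cKO. At Pbrm1 it was 2903, 2785 and 2588 bp in WT and 3404, 3083 and 3400 bp in Pbrm1 cKO. At both genes every cKO library covered more than every WT library, as it did for 13.6% of 20106 protein-coding genes with an interval, and less for 4.49%. The means were 4019 ± 265 bp in WT and 5225 ± 140 bp in Pbrm1 cKO at Arid2, a ratio of 1.30, and 2759 ± 159 and 3296 ± 184 bp at Pbrm1, a ratio of 1.19 (SD, n = 3). The median ratio over all genes was 1.04.

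Both differences had the smallest p the design allows (exact permutation p = 0.1, adjusted over 12 tests to 0.4), so neither passed the threshold. At Pbrm1 the difference of 537 bp was 463 bp among entries at a q of 0.05 or less (exact permutation p = 0.2) and 183 bp among the 100000 best-ranked intervals (exact permutation p = 0.3), with overlapping groups in both. At Arid2 it was 1207 bp, and 1231 and 736 bp in the same subsets (exact permutation p = 0.1 in each).

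The whole lists covered 47.9, 48.7 and 42.7 Mb in WT and 50.5, 48.8 and 46.6 Mb in Pbrm1 cKO. These totals overlapped, since cKO 3 was below WT 1 and WT 2, and WT 3 was the lowest. Per Mb covered by the library, Arid2 had 87.3, 76.3 and 97.3 bp in WT and 105, 104 and 114 bp in Pbrm1 cKO, and Pbrm1 had 60.6, 57.2 and 60.6 bp against 67.4, 63.1 and 73.0 bp. On this scale too every cKO library lay above every WT library at both genes, as at 9.90% of genes, with 7.89% below. The covered length was 1959, 1608 and 2356 bp in WT and 2375, 1805 and 2833 bp in Pbrm1 cKO at Brd7 (exact permutation p = 0.4), and 2376, 2187 and 2196 bp against 2203, 2627 and 2297 bp at Phf10 (exact permutation p = 0.5), with overlapping groups at both.

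**Figure D5:**
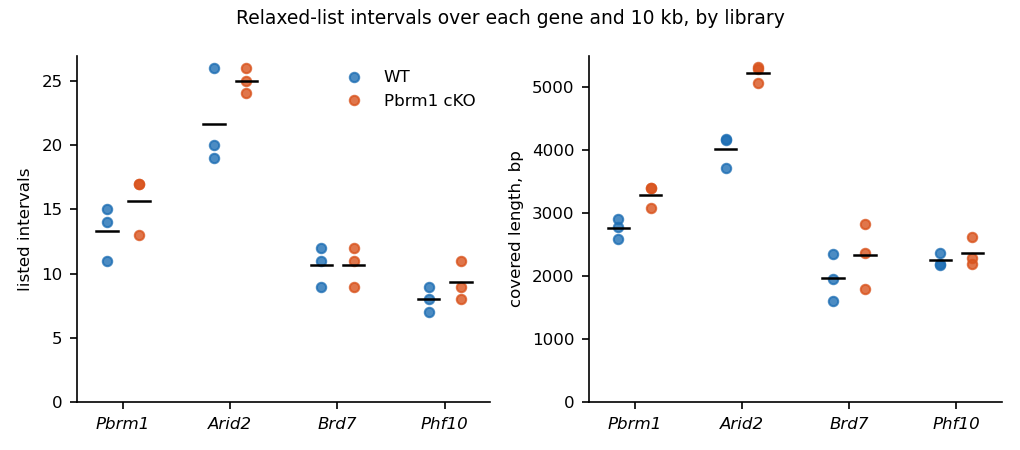
Number of intervals (left) and covered length in bp (right) over each PBAF gene and 10 kb, with 1 point per library (WT blue, Pbrm1 cKO orange) and black bars for group means. In these full lists only the covered lengths of Pbrm1 and Arid2 have groups that do not overlap, at 2588 to 2903 against 3083 to 3404 bp and 3713 to 4185 against 5064 to 5317 bp.

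For comparison, the promoters of the 24 other SWI/SNF genes with a region were tested in the same limma fit, and none was called. One had an unadjusted p under 0.05, Actl6b, a neuronal actin-related subunit, which was higher by 0.84 ± 0.33 (adjusted p = 0.224) with groups that did not overlap. Of 12234 promoter regions of protein-coding genes, 1145 had an unadjusted p under 0.05, and 14.0% had groups that did not overlap. The next smallest p-values were those of Ss18 (1.07 ± 0.68, adjusted p = 0.468) and Actb (−0.41 ± 0.36, adjusted p = 0.621). The median difference was 0.01 over these genes, 0.09 over the 4 PBAF genes and −0.03 over all genes with a promoter region.

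The promoters most like those of the PBAF genes were found by the mean absolute difference in rank score over the 6 libraries, among at least 13278 genes. For Pbrm1 they were Six4 (0.14), Ddx55 (0.17) and Zfp97 (0.18). For Arid2 they were Ppargc1b (0.09), Inpp1 (0.11) and Sox9 (0.12), for Brd7 Eif4e3 (0.15), Hist1h3a (0.19) and Wdr26 (0.19), and for Phf10 Lgr6 (0.08), Basp1 (0.09) and Scrt1 (0.13). None of these was another PBAF gene.

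The 10 kb flank supplied many of the members. Gene bodies alone held 4 regions of both lists, 3 of WT only and 2 of Pbrm1 cKO only, against 10, 5 and 2. Pbrm1 region 3, with the smallest p, and the Smim4 promoter, the most accessible region, both lay in the flank. Few regions lay close to the edge itself. The regions nearest to it on the inside were 418 bp away at Pbrm1 (the Nt5dc2 promoter) and 7822 to 9785 bp away at 6 of the other 7 edges. The nearest outside were 3494 bp beyond the edge at Arid2, with mean scores of 0.02 and 0.33 for WT and Pbrm1 cKO, 6556 bp at Phf10, with 0.94 and 0.40, and 6904 bp at Pbrm1, with 4.31 and 4.10.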

How the data were processed

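ATAC-Seq was measured in 3 WT and 3 Pbrm1 cKO libraries of oviductal muscle cells, grouped by the sample labels. The authors ran the ENCODE ATAC-Seq pipeline 1.9.0 on GRCm38 (GRCm38.p5 in the submitters' processing notes, which also name cutadapt, Bowtie2 and MACS2). Per library they deposited a relaxed list (p of 0.01, at most 300000 entries), and per genotype a list of conservative peaks at an irreproducible discovery rate of 0.05. Which replicates entered that step is not given in the sources used here. Each entry holds the authors' fold enrichment (a ratio), −log10 p, −log10 q, a rescaled score and a summit position deposited as an offset. The fold and p of a summit together give back the reads behind it, which came out whole within 0.05 for 100% of entries. Read depth is otherwise unknown, so the lists show ranks and not read counts, and a shift common to every region in a library leaves no trace. How reads that fit several places were treated is not given in the sources used here for these libraries.

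Regions of the 2 conservative lists that overlapped by at least 1 bp were merged. Each was ranked per library by its best −log10 p, and regions with no entry shared the lowest ranks. Rank scores were compared with limma 3.58.1 (R 4.3.3, eBayes with trend, Benjamini-Hochberg over 66679 regions, adjusted p under 0.05), and single values with two-sided exact permutation tests. On simulated data, the limma step recovered 99 of 200 regions moved 4-fold in rank among 66679, with 1 unchanged region called. The moved regions were drawn from those with a mean score above 2, and spreads were shuffled between regions. This rate does not cover lower regions, among them the 3 PBAF regions at which the groups did not overlap. Genes came from GENCODE M21. A promoter region spans a coding start or is the nearest within 1 kb. Copies were sought with blastn 2.17.0. RefSeq promoters were found for 3 of the 4 genes, and 5 sequences were read from RefSeq or its GRCm38.p6 genome.

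Named regions were each promoter, every region called or listed in 1 genotype only, up to 3 further regions per gene with the smallest p and the 2 with the highest mean score. Other SWI/SNF genes were named if called or among the 3 with the smallest p, besides the extremes of a list. The genes, lists and tests were chosen with earlier results of these data known. Alternatives were normal scores, ranking by fold, regions with entries in all 6 libraries, the replicate number as a block, leaving out each library, gene bodies without the flank, a q of 0.05, the 100000 best intervals, the stronger part of each conservative list and a stricter overlap. Scaling of covered length and the mean over copies were added after seeing the data.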

Additional observations from a re-analysis of the deposited data

How the results depend on the processing

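Of 176 alternative values, 12 reversed the direction of the reported value, 4 counts moved by more than 1.5 times and none crossed a threshold. Differences with the replicate number as a block are among the 176 and could not move. The difference in interval number at Brd7 was 0, with no direction to keep, and its alternatives ran from −1.33 (gene body) to 1.0 (q of 0.05 or less). No region at a PBAF gene and no other SWI/SNF promoter was called in any setting of the limma fit, where the count over all 66679 regions was 45, against 1552 with normal scores, 131 with the replicate block and 2 to 20 in the other settings. Reversals concerned differences that passed no test, and their cause was not tested. Without each library in turn, the promoter difference ranged from −0.0826 to 0.358 at Pbrm1, 0.144 to 0.601 at Arid2, −0.246 to 0.707 at Brd7 and −0.606 to −0.354 at Phf10. At Pbrm1 it was negative without WT 1 (−0.0826), WT 3 (−0.0741), cKO 1 (−0.0712) or cKO 2 (−0.0760). At Brd7 it was −0.246 without WT 1, −0.124 without WT 2, −0.164 without cKO 3 and −0.00406 when regions were ranked by fold. The covered length difference ranged from 452 to 643 bp at Pbrm1, 1054 to 1290 bp at Arid2, 116 to 630 bp at Brd7 and −3.0 to 209 bp at Phf10, and was −139 bp over the Brd7 gene body alone. With the 100000 best intervals, the difference was −0.333 intervals and −235 bp at Phf10, 0.333 intervals (2.33 in the full lists) and 183 bp (537) at Pbrm1, and 1.67 intervals (3.33) and 736 bp (1207) at Arid2, and the groups at Pbrm1 then overlapped in covered length (exact permutation p = 0.3, or 0.2 at a q of 0.05 or less). Scaled to the same total per library, the covered length difference was 399.7 bp at Pbrm1 and 979.6 bp at Arid2. The regions listed in WT only were 3 over gene bodies alone and 0 in the stronger part of each list, those in Pbrm1 cKO only 0 in the stronger part, and those in both 4 over gene bodies.

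Replicate numbers were shared by the groups, and the labels do not say whether they pair the libraries. Deviations of same-numbered libraries correlated at −0.00289, −0.0549 and 0.00906 across regions, and those of differently numbered ones at −0.0771 to 0.0868. With 3 libraries per genotype, these values cannot settle the question. A fit with the replicate number as a block left the promoter differences as they were (0.0672 at Pbrm1, 0.378 at Arid2, 0.112 at Brd7 and −0.490 at Phf10), with 0 PBAF regions called and a smallest adjusted p of 0.126 (limma). Counts behind the weakest regions, 8 to 25 reads at a summit, limit what could be seen there.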
